A study of Mus musculus with 8 samples.

Results

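Transcripts of 10 genes through which growth hormone, insulin-like growth factor 1 (IGF-1), insulin, epidermal growth factor (EGF) and leptin act on or leave the liver were measured in livers of Rap1-deficient and wild-type mice. The genes were Igf1, its carriers Igfals, Igfbp2, Igfbp3 and Igfbp4, the growth hormone receptor Ghr with its feedback inhibitor Socs2, and the receptors Insr, Egfr and Lepr. Every array probe whose transcript accession maps to 1 of these genes was kept, and probes of the same gene were kept apart. This gave 24 probes of 10 genes, out of 55681 probes and 19752 named genes on the array. Of these 24 probes, 23 were bright enough to be tested, at least 1 for each gene.

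Growth hormone from the pituitary binds its receptor on hepatocytes, where the kinase JAK2 and the transcription factor STAT5 relay the signal to the genes for IGF-1 and its circulating partner, the acid-labile subunit. IGF-1 leaves the liver bound to IGF binding proteins, which prolong its life in blood and control how much of it reaches its receptor. Insulin, EGF and leptin act through receptors of their own, and hepatocytes are known for abundant insulin and EGF receptors and for short forms of the leptin receptor.

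The array series profiled whole liver of 4 Rap1 -/- and 4 wild-type mice, 1 mouse per array, all aged 10 weeks and on a mixed C57BL6/129SV background (90% and 10%). The Rap1 -/- mice lack Rap1 (gene symbol Terf2ip), which codes for a telomere-binding protein, in the whole body. They descend from a cross of floxed Rap1 mice with mice expressing Cre in the early embryo from the adenovirus EIIa promoter, and the Cre transgene was later bred out. The study profiled mice of this age to look at the liver before weight gain set in. It also profiled livers of fasted females of this age, to look at hepatic transcription factors. The labels do not say to which of these profiles the arrays belong. Neither sex nor feeding state is given in the labels. The study describes the young mice of its expression profiles as females. On these arrays 2 Xist probes were well above background in 16 of 16 readings, while 5 probes of 4 Y-linked genes were so in 1 of 40 readings.

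Each array had a 75th percentile signal between 219.8 and 226.9 in Rap1-deficient livers and between 178.9 and 209.3 in wild-type livers, and the share of probes well above background ran from 50.03% to 65.34%. Pearson correlations between arrays ran from 0.98 to 0.992 across tested probes. The arrays lay on 2 slides, with 2 livers of each genotype on each. On both slides the wild-type livers held positions 1 and 2 and the Rap1-deficient livers positions 3 and 4, so that position and genotype cannot be told apart. The deleted gene checked the labels: Terf2ip probe A_52_P381806 read -6.28 ± 0.43 in Rap1-deficient livers and 0.14 ± 0.09 in wild-type livers (log2 relative to the array's 75th percentile, SD, n = 4 each), at least 17.9-fold lower (limma, adjusted p = 7.09e-06). A second Terf2ip probe, A_55_P2094079, read 0.29 ± 0.18 in Rap1-deficient livers and -0.92 ± 0.22 in wild-type livers, a difference of 1.20 (limma, adjusted p = 0.127). Among markers of the tissue, all 8 hepatocyte genes were tested and none passed.

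STAT5 binds DNA at the letters TTCNNNGAA, a pattern that is its own reverse complement, so that a search of 1 strand covers both. Promoter windows of 300 bases, from 250 before to 50 after a transcript start, were taken from RefSeq (GRCm38.p6) for 8 of the 10 genes, all but Socs2 and Insr. Of the 13 windows of these genes 2 held the pattern, against 2726 of 32851 windows of all genes (8.3%). Both belong to Igfals on chromosome 17, and they are printed here because it is the only gene of the group with windows that show these letters. Another Igfals window, downstream of both (chr17:24878497-24878796, plus strand), lacks the pattern. The capitals mark TTCNNNGAA, which begins at position -236 from the start in the upstream window (chr17:24877594-24877893, plus strand) and at -58 in the downstream one (chr17:24877981-24878280, plus strand).
Igfals upstream window: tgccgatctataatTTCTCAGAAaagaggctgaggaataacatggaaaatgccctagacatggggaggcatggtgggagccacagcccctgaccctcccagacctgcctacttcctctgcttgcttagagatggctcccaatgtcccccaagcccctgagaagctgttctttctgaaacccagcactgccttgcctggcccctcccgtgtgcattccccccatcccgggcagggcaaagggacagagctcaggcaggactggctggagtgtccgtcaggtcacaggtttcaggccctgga
Igfals downstream window: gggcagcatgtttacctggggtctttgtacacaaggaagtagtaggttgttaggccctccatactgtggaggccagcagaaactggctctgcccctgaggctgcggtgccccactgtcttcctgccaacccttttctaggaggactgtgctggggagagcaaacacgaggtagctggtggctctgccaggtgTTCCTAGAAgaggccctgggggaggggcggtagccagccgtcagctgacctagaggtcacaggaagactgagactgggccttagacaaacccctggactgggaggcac
A match of letters is a description and not a binding site, and no binding was measured here. The windows of the other genes ranged in GC content from 52.3% at Igf1 and at 1 Ghr window to 71.7% at Igfbp3.

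The group was first compared as a whole between genotypes. None of the 23 tested probes passed an adjusted p of 0.05 (limma with Benjamini-Hochberg adjustment over all 31065 tested probes), and the smallest adjusted p among them was 0.809. Over all probes 2 passed (0.00644%), Terf2ip A_52_P381806 and Chst4, whose difference was -3.45 (adjusted p = 0.00608). At an unadjusted p under 0.05 stood 1 of the 23 probes (4.35%), a Lepr probe, against 6.12% of all tested probes. The 4 Rap1-deficient livers did not lie beyond all 4 wild-type livers in either direction for any of the 23 probes, whereas they did so for 4.19% of all probes. The difference was above 0 for 11 probes and below 0 for 12, with a median of 0.00 that equalled the median of all probes, and it ran from -0.76 for Lepr to 0.37 for Igf1. All differences are Rap1-deficient minus wild type on the log2 scale. With 4 livers per genotype the smallest exact permutation p that can be reached is 0.0286, and the smallest found among the group was 0.0857.

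**Figure D1:**
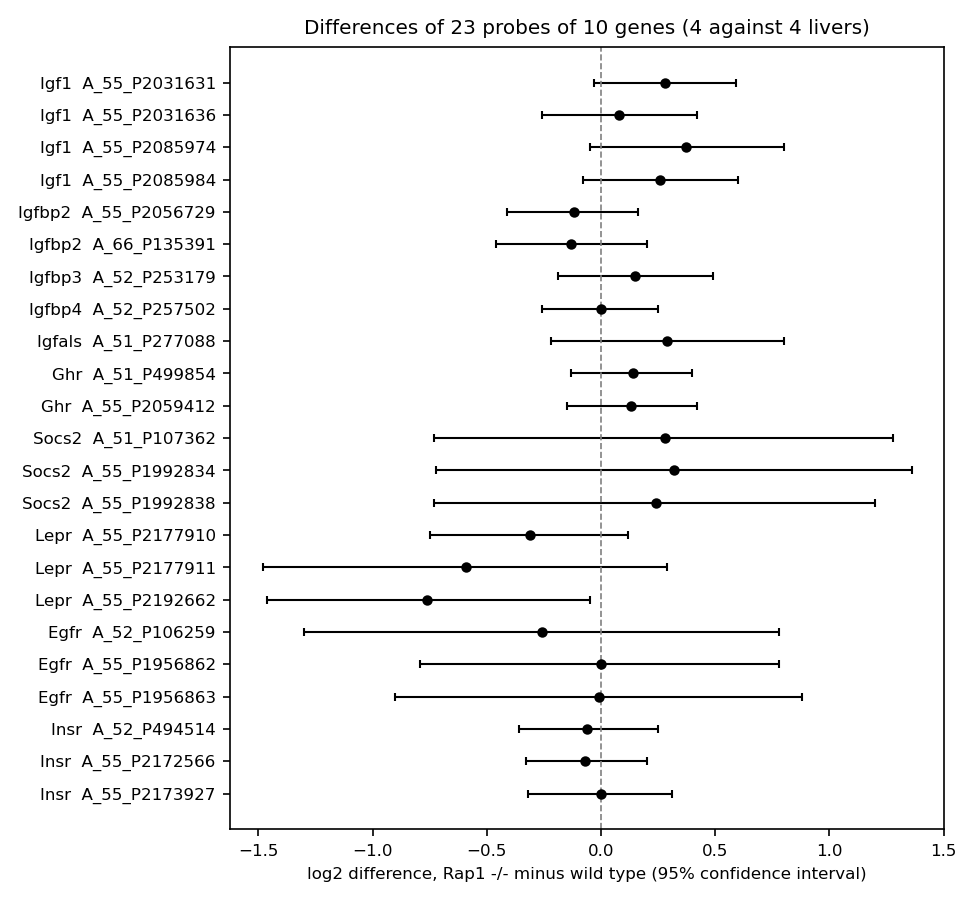
Difference in log2 signal (Rap1 -/- minus wild type, horizontal axis) of each of 23 tested probes of the 10 genes, with the 95% confidence interval from limma as bars, 4 livers per genotype. The intervals of all probes span 0 except that of Lepr A_55_P2192662, which ends at -0.05.

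Igf1 codes for the hormone by which the liver carries growth hormone's signal to bone and muscle. Its brightest probe, A_55_P2031631, read 6.90, 7.15, 6.65 and 6.96 in Rap1-deficient livers 1 to 4, against 6.69, 6.42, 6.80 and 6.62 in wild-type livers 1 to 4. Rap1-deficient liver 2 was the highest and wild-type liver 2 the lowest, and the genotypes overlapped because Rap1-deficient liver 3 lay below wild-type livers 1 and 3. The means were 6.92 ± 0.21 in Rap1-deficient and 6.63 ± 0.16 in wild-type livers (SD, n = 4 each), a difference of 0.28 (SE 0.14, 95% interval -0.03 to 0.59). That is a fold of 1.22, with an interval from 0.98 to 1.51 (limma, adjusted p = 0.819, exact permutation p = 0.0857). Within slide 1 the difference was 0.47 and within slide 2 it was 0.09.

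All 4 Igf1 probes carry the same accession, NM_010512, and Rap1-deficient liver 2 was the highest of the 8 livers on each. Probe A_55_P2085984 differed by 0.26 (SE 0.15) and A_55_P2085974 by 0.37 (SE 0.19), with adjusted p of 0.831 and 0.819. The fourth, A_55_P2031636, read 1.73, 2.05, 1.60 and 1.75 in Rap1-deficient livers and 1.93, 1.57, 1.86 and 1.45 in wild-type livers, a difference of 0.08 (SE 0.15, adjusted p = 0.94). To see whether the probes moved apart, the log2 ratio of A_55_P2031631 over A_55_P2031636 was taken within each array, a comparison chosen after the values were seen. It was 5.13 ± 0.07 in Rap1-deficient and 4.93 ± 0.17 in wild-type livers, a difference of 0.20 that did not pass the exact permutation test (p = 0.0857, 0.343 adjusted over 4 such pairs). Over the 8 livers, the genes closest to Igf1 after centring each on its own mean were Gtpbp10, Sult2a8 and Cfhr2, at root mean square distances of 0.0664, 0.0832 and 0.0856. For scale, the distance of Igf1 from a flat line was 0.213.

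**Figure D2:**
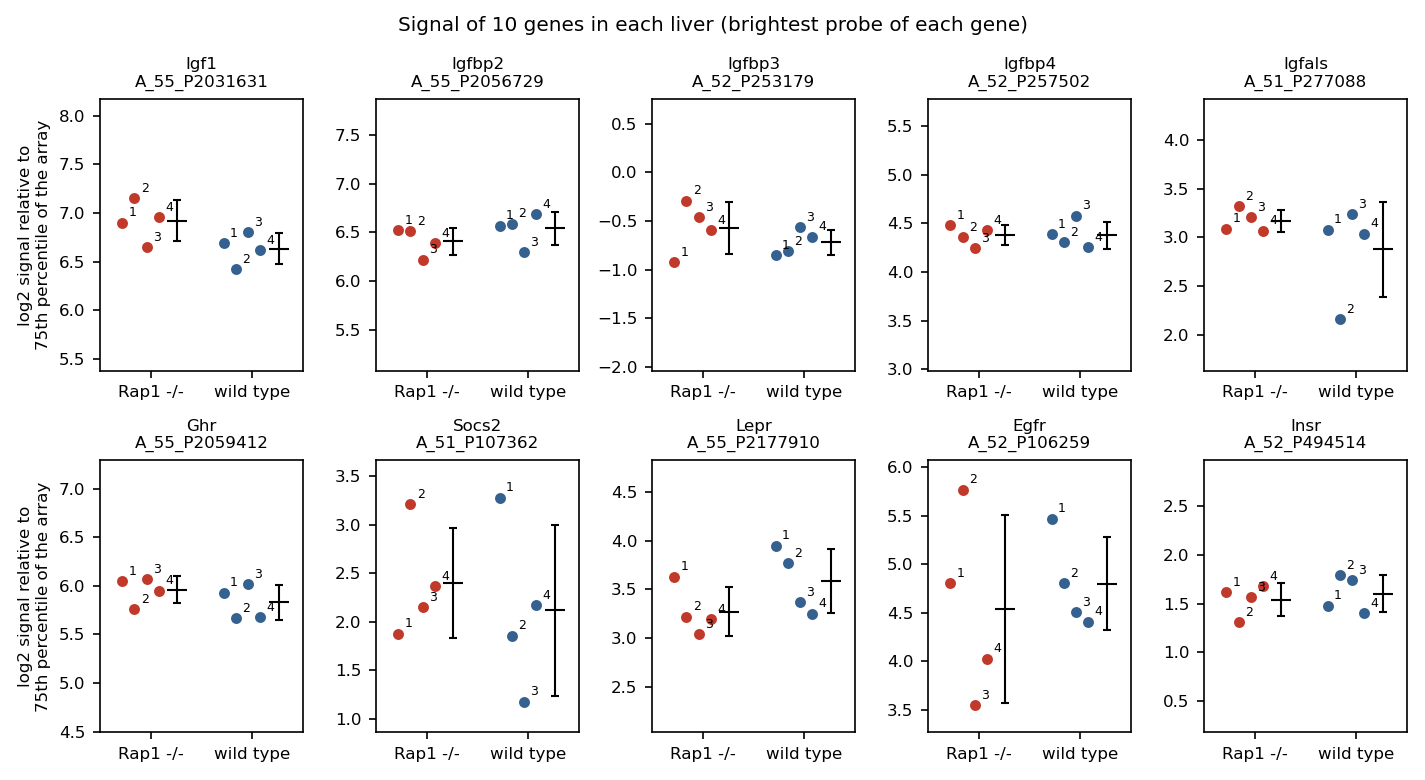
Signal (vertical axis, log2 relative to the array's 75th percentile) of the brightest probe of each gene in each liver, numbered by replicate, with Rap1 -/- on the left and wild type on the right. Bars give mean and SD of 4 livers, all panels span the same range, and the points of both genotypes overlap in every panel, with Socs2 and Egfr the most spread.

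Carriers of IGF-1 were next. Igfals codes for the acid-labile subunit, which joins IGF-1 and a binding protein in the large complex that circulates. It read 3.09, 3.32, 3.21 and 3.07 in Rap1-deficient livers, against 3.08, 2.16, 3.24 and 3.04 in wild-type livers. Wild-type liver 2 stood alone below the other 7 livers, which lay between 3.04 and 3.32. The difference of 0.29 (SE 0.22, 95% interval -0.22 to 0.80, limma adjusted p = 0.852, exact permutation p = 0.257) was 0.05 without that liver, 0.58 within slide 1 and 0.00 within slide 2. The genes with the closest pattern were Sat2 (root mean square distance 0.102), Otc (0.113), which codes for ornithine transcarbamylase of the urea cycle, and Gaa (0.132), which codes for lysosomal alpha-glucosidase. Wild-type liver 2 was the lowest for all of them, which follows from choosing them by likeness to Igfals over the same livers. Otc read 3.43 there and 3.93 or above elsewhere. Igfals is also the gene of the 2 promoter windows printed above.

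Igfbp3 codes for the binding protein that holds most circulating IGF-1 and is made in liver mainly by cells other than hepatocytes. It read -0.92, -0.29, -0.46 and -0.59 in Rap1-deficient livers and -0.85, -0.81, -0.56 and -0.66 in wild-type livers. The highest and the lowest value were both from Rap1-deficient livers, and the difference was 0.15 (SE 0.15, 95% interval -0.19 to 0.49, limma adjusted p = 0.879). It was 0.06 without Rap1-deficient liver 2 and 0.27 without Rap1-deficient liver 1. In whole liver, fewer cells of a type and less RNA per cell cannot be told apart. Summed over 7 tested markers of sinusoidal endothelial cells, the scaled signal was 74 to 104 times the 75th percentile in Rap1-deficient livers and 73.9 to 97.1 times in wild-type livers. For 7 tested Kupffer cell markers, all of which had a difference below 0 without any at an unadjusted p under 0.05, the sum was 144 to 242 in Rap1-deficient and 184 to 255 in wild-type livers. The part of these cells in the Igfbp3 value was not tested.

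Igfbp2 codes for a binding protein that hepatocytes secrete. Its probe A_55_P2056729 read 6.52, 6.51, 6.22 and 6.39 in Rap1-deficient livers, against 6.57, 6.59, 6.30 and 6.69 in wild-type livers. The values overlapped, with wild-type liver 4 the highest. The difference was -0.12 (SE 0.12, 95% interval -0.41 to 0.16, limma adjusted p = 0.881). Its second probe, A_66_P135391, gave -0.13 (SE 0.15), and on both probes Rap1-deficient liver 3 was the lowest. Igfbp4 codes for a binding protein that holds IGF-1 back from its receptor. It read 4.48, 4.36, 4.25 and 4.43 in Rap1-deficient livers and 4.39, 4.31, 4.58 and 4.26 in wild-type livers. Both means were 4.38, and the interval of the difference (0.00, SE 0.11) ran from -0.26 to 0.25, which leaves room for folds from 0.837 to 1.19. This was the steadiest probe of the group, with a residual SD of 0.12 that only 12.9% of all tested probes undercut.

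Ghr codes for the receptor that starts the pathway, and a shorter transcript of the gene in mice codes for the soluble growth hormone binding protein. The probe with the accession of the full receptor, A_51_P499854 (NM_010284), read 5.73, 5.54, 5.62 and 5.65 in Rap1-deficient livers, against 5.42, 5.42, 5.76 and 5.40 in wild-type livers. The Rap1-deficient livers lay above 3 of the wild-type livers and below wild-type liver 3. The difference was 0.14 (SE 0.12, 95% interval -0.13 to 0.40, limma adjusted p = 0.865). The probe with the accession of the shorter transcript, A_55_P2059412 (NM_001048178), read 6.05, 5.76, 6.07 and 5.95 in Rap1-deficient livers and 5.93, 5.67, 6.02 and 5.68 in wild-type livers. Its difference was 0.13 (SE 0.13, 95% interval -0.15 to 0.42, limma adjusted p = 0.879). The log2 ratio of the first probe over the second, taken within each array, was -0.32 ± 0.09 in Rap1-deficient and -0.33 ± 0.12 in wild-type livers (exact permutation p = 0.943). The exons under each probe are not given in the files, so a probe stands for its listed accession only.

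Socs2 codes for a suppressor of cytokine signalling that growth hormone induces and that in turn damps the receptor. Probe A_51_P107362 read 1.88, 3.21, 2.15 and 2.37 in Rap1-deficient livers, against 3.28, 1.86, 1.18 and 2.17 in wild-type livers. One liver of each genotype, Rap1-deficient liver 2 and wild-type liver 1, stood above 3, and wild-type liver 3 was the lowest, so the genotypes overlapped over nearly their whole range. The difference was 0.28 (SE 0.44, 95% interval -0.73 to 1.28, limma adjusted p = 0.93, exact permutation p = 0.629). The spread between livers was 2.10 on the log2 scale, or 4.29-fold, and the residual SD of 0.74 exceeded that of 96.4% of tested probes, whose median was 0.24. Both other Socs2 probes had the same livers on top and at the bottom. Probe A_55_P1992834 read 2.61 in Rap1-deficient liver 2 and 2.59 in wild-type liver 1, and 0.51 in wild-type liver 3, while A_55_P1992838 read 2.52, 2.39 and 0.61 in these livers. All 3 probes carry one accession and are not independent measures of the difference. Within slide 1 the difference of A_51_P107362 was -0.03 and within slide 2 it was 0.58.

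**Figure D3:**
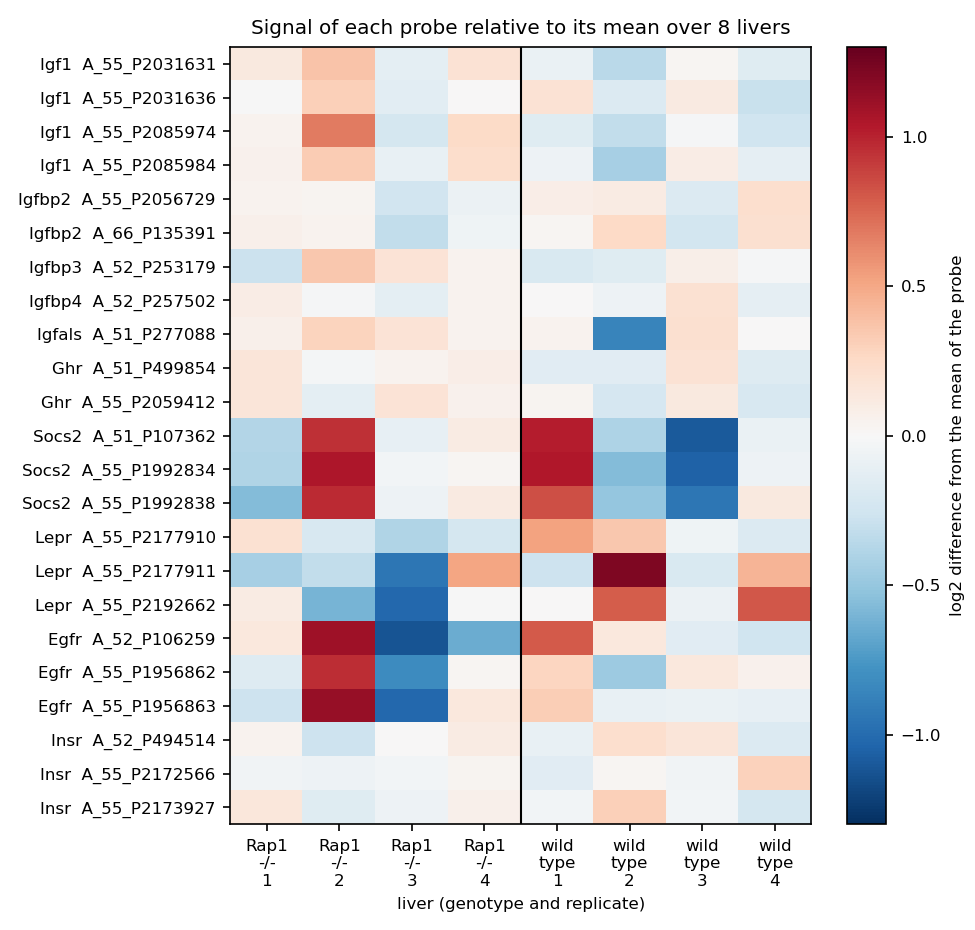
Log2 signal of each tested probe relative to its own mean over 8 livers (colour scale, red above and blue below), with probes in rows and livers in columns, Rap1 -/- on the left. The 3 Socs2 probes share 2 high livers (Rap1 -/- 2 and wild type 1) and 1 low liver (wild type 3), and the 3 Egfr probes share Rap1 -/- 2 as the highest and Rap1 -/- 3 as the lowest.

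Egfr codes for the receptor of EGF and related ligands, through which hepatocytes are driven to grow. Probe A_52_P106259 (NM_207655) read 4.81, 5.77, 3.55 and 4.03 in Rap1-deficient livers, against 5.47, 4.81, 4.51 and 4.41 in wild-type livers. The Rap1-deficient livers held both the highest and the lowest value, 2.22 apart on the log2 scale or 4.66-fold, and enclosed all wild-type livers. The difference was -0.26 (SE 0.46, 95% interval -1.30 to 0.78, limma adjusted p = 0.937, exact permutation p = 0.6), with 0.15 within slide 1 and -0.67 within slide 2. A pair of probes with the accession NM_007912 repeated the order at the ends. Probe A_55_P1956862 read 2.68, 3.82, 2.03 and 2.89 in Rap1-deficient livers and 3.13, 2.39, 2.99 and 2.92 in wild-type livers, a difference of 0.00 (SE 0.34). Probe A_55_P1956863 read 2.44, 3.84, 1.69 and 2.85 in Rap1-deficient livers and 3.03, 2.61, 2.62 and 2.60 in wild-type livers, a difference of -0.01 (SE 0.39). The 3 probes had larger SDs in Rap1-deficient livers (0.97, 0.74 and 0.90) than in wild-type livers (0.48, 0.33 and 0.21). Whether the spread itself differed between genotypes was not tested. The within-array log2 ratio of A_52_P106259 over A_55_P1956862 was 1.68 ± 0.44 in Rap1-deficient and 1.94 ± 0.51 in wild-type livers (exact permutation p = 0.486).

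Insr codes for the insulin receptor and lies on chromosome 8, as does the deleted gene. Probe A_52_P494514 read 1.62, 1.31, 1.57 and 1.68 in Rap1-deficient livers, against 1.48, 1.79, 1.74 and 1.40 in wild-type livers, with full overlap. The difference was -0.06 (SE 0.14, 95% interval -0.36 to 0.25, limma adjusted p = 0.961). The other Insr probes, A_55_P2172566 and A_55_P2173927, differed by -0.07 (SE 0.12) and 0.00 (SE 0.14).

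Lepr codes for the leptin receptor, whose short forms bind leptin and whose long form carries the full signalling tail. Probe A_55_P2177910 (NM_010704) read 3.63, 3.22, 3.04 and 3.19 in Rap1-deficient livers, against 3.95, 3.77, 3.37 and 3.25 in wild-type livers. Rap1-deficient livers 2 to 4 were the lowest of the 8, and Rap1-deficient liver 1 lay among the wild-type livers. The difference was -0.31 (SE 0.19, 95% interval -0.75 to 0.12, limma adjusted p = 0.834, exact permutation p = 0.171), with -0.44 within slide 1 and -0.19 within slide 2. Probe A_55_P2192662 (NM_001122899) read -0.60, -1.32, -1.73 and -0.73 in Rap1-deficient livers, against -0.72, 0.08, -0.80 and 0.10 in wild-type livers. Wild-type livers 2 and 4 were the highest, while wild-type livers 1 and 3 lay within the Rap1-deficient range. Its means were -1.09 ± 0.53 in Rap1-deficient and -0.33 ± 0.49 in wild-type livers, a difference of -0.76 (SE 0.31, 95% interval -1.46 to -0.05) or a fold of 0.591. This was the one probe of the group at an unadjusted p under 0.05 (limma, p = 0.0379, adjusted p = 0.809, exact permutation p = 0.143). At that threshold 6.12% of all probes stood.

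A second probe with the accession NM_010704, A_55_P2177911, read -0.66, -0.54, -1.17 and 0.29 in Rap1-deficient livers and -0.49, 0.99, -0.43 and 0.22 in wild-type livers, a difference of -0.59 (SE 0.39, limma adjusted p = 0.839). On all 3 tested Lepr probes Rap1-deficient liver 3 was the lowest. Each was lower in Rap1-deficient livers under all alternatives tried, without any adjusted p under 0.75 (limma). The differences ran from -0.44 to -0.15 for A_55_P2177910, from -0.86 to -0.29 for A_55_P2177911 and from -0.92 to -0.49 for A_55_P2192662. Filters, variance model, blocks and testing brightest probes only cannot move a difference, so the direction there was fixed in advance. The lower ends of the ranges came from slide 1 alone or from leaving a liver out. The fourth probe, A_66_P130517 (NM_146146, the accession of the long form), did not rise well above background in any liver and so was left untested. It read -5.27, -5.14, -5.64 and -4.21 in Rap1-deficient livers and -5.51, -3.57, -5.86 and -4.44 in wild-type livers, which gives no fold. The within-array log2 ratio of A_55_P2177910 over A_55_P2192662 was 4.37 ± 0.37 in Rap1-deficient and 3.92 ± 0.65 in wild-type livers (exact permutation p = 0.286). The genes closest to A_55_P2177910 over the 8 livers were Pwwp3a, Gfra4 and Map6d1, at distances of 0.0592, 0.0835 and 0.0916 against 0.298 for a flat line.

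**Figure D4:**
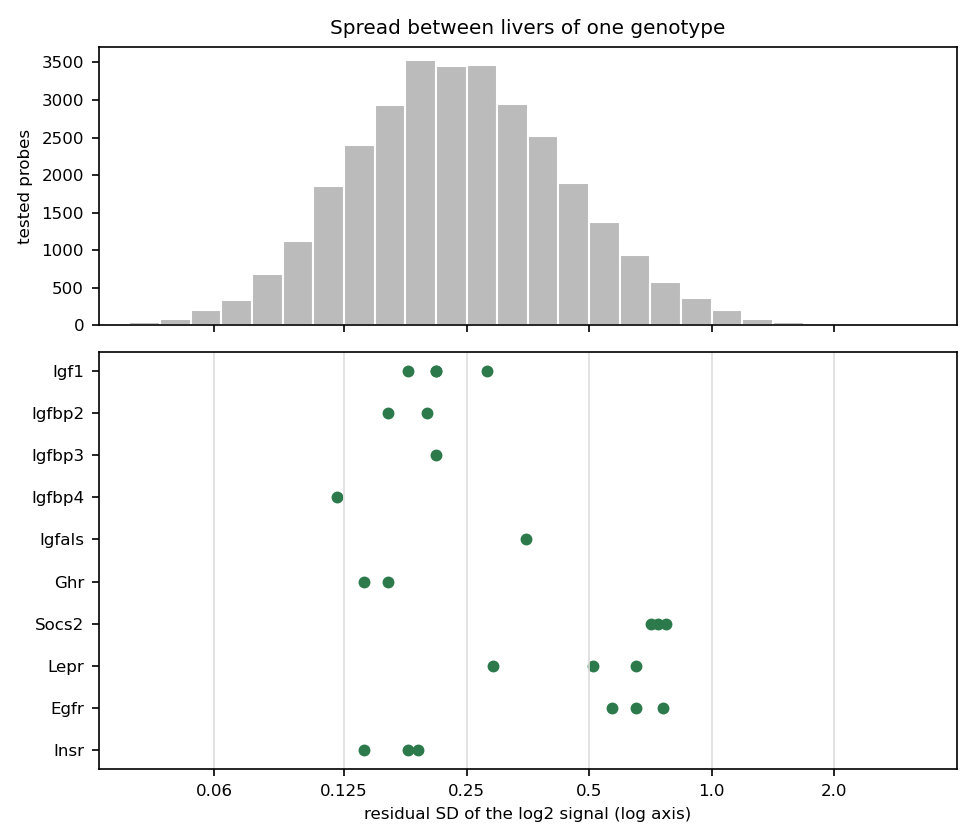
Residual SD of the log2 signal between livers of a genotype (horizontal axis, logarithmic) for all tested probes as a histogram (top, number of probes) and for each tested probe of the 10 genes as points (bottom). Igfbp4 at 0.12 lies in the steady tail, and all probes of Socs2, Egfr and Lepr lie above the median of 0.24.

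The genes of the group differed in how far livers of the same genotype lay apart. The residual SD within genotypes had a median of 0.21 over the 23 probes and 0.24 over all tested probes. Socs2 (0.71 to 0.77) and Egfr (0.57 to 0.76) lay above at least 91.9% of tested probes, and 2 of the 3 tested Lepr probes had SDs of 0.51 and 0.65. The probes of Igfbp2, Ghr and Insr lay between 0.14 and 0.20. Taking the brightest tested probe of each gene, Rap1-deficient liver 2 was the highest of 8 for 4 of the 10 genes and Rap1-deficient liver 3 the lowest for 4. Wild-type liver 2 was the lowest for 3, namely Igf1, Igfals and Ghr. The closest patterns to Socs2 were those of Abcg3, Nrp1 and Caprin1 (0.307, 0.361 and 0.368, against 0.656 for a flat line). Those to Egfr were of Olfr394, Olfr951 and Ube2w (0.248, 0.335 and 0.34, against 0.675). Olfr394 and Olfr951 were dim, at -4.82 and -4.24 in Rap1-deficient liver 3 and -2.49 and -2.99 in Rap1-deficient liver 2.

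Genes upstream and downstream of the group were then counted in 8 lists with 102 genes, of which 99 were on the array and 89 were tested, each by its brightest probe. None passed an adjusted p of 0.05 (limma, over 14063 genes, of which 2 or 0.0142% passed), and the smallest adjusted p was 0.769. At an unadjusted p under 0.05, 2 of the 89 were higher and 3 lower in Rap1-deficient livers, against 4.01% of all genes higher and 2.35% lower. The 5 were Nudt7 and Btc, higher, and Foxo3, Igf2bp2 and Igfbp6, lower, with Btc well above background in 1 of the 4 wild-type livers. The difference was above 0 for 43 and below 0 for 46, with a median of -0.01 beside 0.02 for all genes.

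Among 12 relays of growth hormone and JAK-STAT signalling, 3 were above 0 and 9 below, with a median of -0.04. Cish, a suppressor induced by STAT5, read 2.96, 3.35, 3.07 and 4.01 in Rap1-deficient livers and 2.92, 3.83, 2.54 and 2.17 in wild-type livers, a difference of 0.48 (SE 0.36, adjusted p = 0.85). Its promoter window holds TTCNNNGAA at 2 positions. Stat3, which relays interleukin-6 and leptin, differed by -0.32 (SE 0.18, adjusted p = 0.809), and the phosphatase gene Ptpn6 by 0.07. The STAT5 genes differed by -0.06 (Stat5a) and 0.05 (Stat5b).

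Genes that respond to growth hormone with a sex bias in mouse liver gave medians of 0.13 (12 male-biased genes tested, 9 above 0) and 0.04 (15 female-biased genes tested, 8 above 0). Nudt7, a peroxisomal hydrolase gene on chromosome 8, read 6.41, 7.02, 6.04 and 6.50 in Rap1-deficient livers and 5.45, 5.52, 6.19 and 5.85 in wild-type livers. The genotypes overlapped only through Rap1-deficient liver 3 and wild-type liver 3, and the difference was 0.74 (SE 0.23, limma adjusted p = 0.769), with 1.23 within slide 1 and 0.25 within slide 2. Serpina1e and Cyp2d9 differed by -0.18 and 0.29, and Cyp17a1, Hao2 and Sult3a1 of the female-biased list by -0.26, 1.02 and 0.51, all with adjusted p of 0.788 or above.

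Of 8 tested genes of the wider IGF system, 3 were above 0 and 5 below, with a median of -0.16. Igfbp6, a binding protein that prefers IGF-2, read -0.15, 1.12, -2.19 and 0.00 in Rap1-deficient livers and 1.29, 1.25, 1.66 and 0.46 in wild-type livers. Rap1-deficient liver 3 was far below the others, and the difference was -1.47 (SE 0.61, limma adjusted p = 0.769). It was -0.84 without that liver, -0.79 within slide 1 and -2.15 within slide 2. Igf2bp2, an RNA-binding protein gene, differed by -0.51 (SE 0.18, limma adjusted p = 0.769), or by -0.16 in the authors' values, and Igf2 by -0.27. Igf1r, the IGF-1 receptor, differed by 0.04 (SE 0.12).

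In the EGF family, 13 genes were tested with a median of 0.01. Betacellulin (Btc), an EGF receptor ligand, read -2.24, -3.60, -2.79 and -4.14 in Rap1-deficient livers and -4.24, -6.12, -4.03 and -5.69 in wild-type livers. It was well above background in all 4 Rap1-deficient and in 1 of 4 wild-type livers, so that it entered the test through the Rap1-deficient livers. No fold is given for it. On the log2 scale the fitted difference was 0.37 in the values processed by the authors and 2.26 within slide 1, the ends of its range over the alternatives (limma adjusted p of 0.747 or above). Lrig1, which restrains the receptor, and Egf differed by -0.19 and 0.34.

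In insulin signalling, 17 genes were tested with 7 above 0, 10 below and a median of -0.08. Foxo3, a transcription factor that insulin holds out of the nucleus, differed by -0.33 (SE 0.13, limma adjusted p = 0.769) and by -0.07 in the authors' values. Enpp1, which codes for an inhibitor of the insulin receptor, differed by -0.12 (SE 0.08). The 10 target genes of insulin and fasting had a median of -0.07, with G6pc at -0.39 (SE 0.53), Srebf1 at 0.21 (SE 0.32) and Pck1 at -0.24 (SE 0.37). The 4 tested genes of leptin signalling had a median of 0.04, with Leprot at 0.14, Sh2b1 at -0.05 and Ptpn2 at 0.04.

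**Figure D5:**
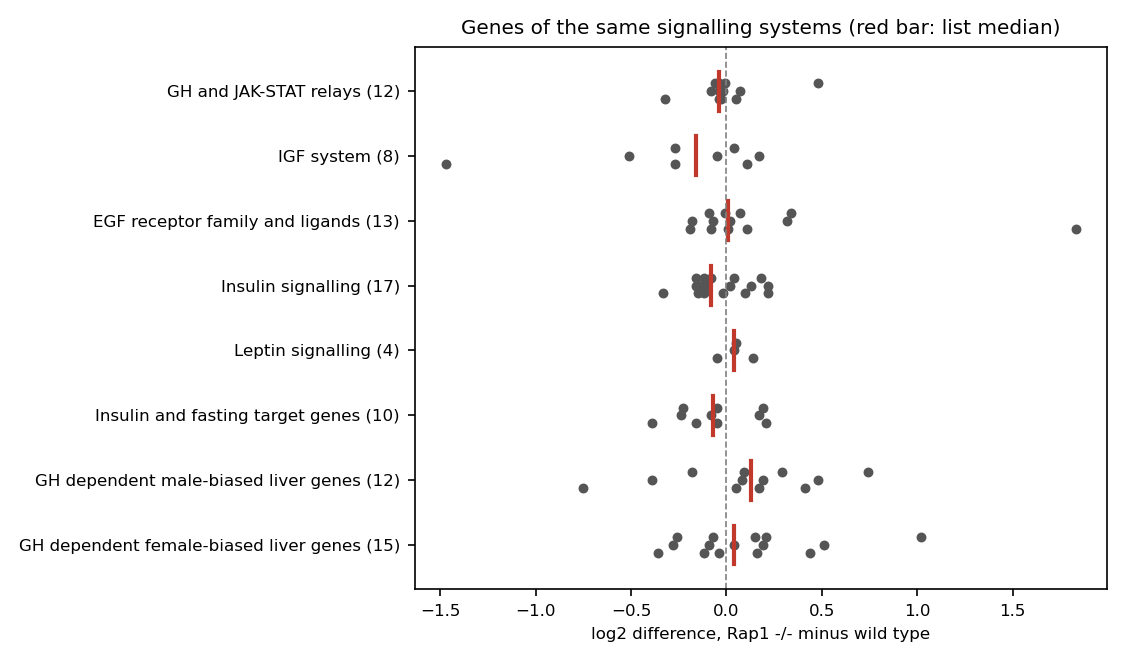
Log2 difference (Rap1 -/- minus wild type, horizontal axis) of each tested gene in 8 lists of related genes, with the number tested in parentheses and a red bar at the list median. Medians lie between -0.16 and 0.13 and most points within 0.5 of 0, while the highest point is Btc, for which 1 of 4 wild-type livers was well above background.

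Markers of cell types gave the setting of these values. Summed over 8 hepatocyte genes, the scaled signal was 5570 to 5730 times the 75th percentile in Rap1-deficient livers and 5870 to 6610 times in wild-type livers, without overlap. Of single tested probes, 4.19% lay apart without overlap. The 75th percentile by which the sums are divided also did not overlap, at 219.8 to 226.9 in Rap1-deficient and 178.9 to 209.3 in wild-type livers. A lower scaled sum is therefore not a lower signal before scaling, and the part of the scaling in this split was not tested. Alb and Serpina1a (-0.19), the brightest of the 8 genes, weigh most in this sum of linear signals. Of these 8 genes 4 were above 0 and 4 below, with a median difference of 0.00, from -0.21 for Alb to 0.25 for Cps1. Over 6 cholangiocyte genes it was 4.08 to 8.18 in Rap1-deficient and 3.36 to 4.77 in wild-type livers, with Krt19 at 0.59 and Spp1 at 0.69 past an unadjusted p of 0.05, as were 4.01% of all genes in that direction, and Krt7 at -0.07 and Cftr at -0.53. Also past it were Alb, the endothelial gene Lyve1 (-0.67), the T cell gene Cd3e (-0.24) and the stellate cell gene Col3a1 (0.46), without any marker past an adjusted p of 0.05. Over 7 stellate cell genes it was 108 to 126 in Rap1-deficient and 104 to 117 in wild-type livers, and over 4 neutrophil genes it was 6.2 to 9.83 in Rap1-deficient and 6.46 to 17.2 in wild-type livers. Sums over 5 T and NK cell genes were 10.6 to 13.9 in Rap1-deficient and 12.2 to 15.6 in wild-type livers, and those over 3 erythroid genes were 140 to 276 in Rap1-deficient and 71.3 to 292 in wild-type livers. Of 5 adipocyte markers 1 was bright enough to be tested, at 0.131 to 0.417 in Rap1-deficient and 0.134 to 0.318 in wild-type livers. Over 3 pancreas acinar genes the sums were 6.48 to 7.19 in Rap1-deficient and 4.75 to 6.82 in wild-type livers. Amy2a5 (0.28) makes up nearly all of these sums. Prss1 (-0.24) and Cela1 (0.35) were dim, well above background in 2 and 3 of the 4 livers of each genotype. The part of these cell types in the values of the group was not tested.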

How the data were processed

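Liver RNA of 8 mice was labelled with Cy3 and hybridised to single-colour Agilent mouse arrays. Per the file headers, spots were quantified with Agilent Feature Extraction 10.7.3.1 (the study's methods name another release), and the deposited processed signal is a background-subtracted intensity that was not scaled between arrays. A second table deposited by the authors holds log2 values and served as an alternative. Its column medians were 6.39 to 6.40, and 99.5% of its values lay within 0.05 of normexp-corrected (offset 50), quantile-normalised median signals. The submitters' processing notes name limma.

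Control and outlier spots were left out, log2 values of repeated spots were averaged, and each array's 75th percentile was subtracted. Probes were named through RefSeq accessions (GRCm38.p6), which gave a symbol to 26056 of 55681 probes (46.8%). Probes well above background, by most of their spots, on at least 4 of 8 arrays were tested (31065). The genotype difference came from limma 3.58.1 in R 4.3.3 (functions lmFit and eBayes, no covariates), with p values adjusted after Benjamini and Hochberg over all tested probes, or over 14063 genes by their brightest tested probe. Exact permutation tests were two-sided over 70 partings of the 8 arrays. Bounds ("at least") raise dim values to the lowest signal well above background on the array. The number of arrays limits the precision.

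Named are all 10 genes with each probe, Terf2ip, the 3 genes of each list with the smallest unadjusted p and the 3 genes nearest in pattern to each gene (shown for Igf1, Igfals, Socs2, Lepr and Egfr). A gene that this rule names in the insulin list is not reported here. Chst4, Stat5a, Stat5b, Igf1r and single markers were added after their values were seen, and so were the genes described for single livers. The genes and lists were chosen with earlier results of these data known. Scaling, background correction, filters, variance model, slide, replicate block and each liver left out were tried as alternatives.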

Additional observations from a re-analysis of the deposited data

Results flagged for a closer look

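Of 46 sets of 4 livers (23 probes in each genotype), 2 held a liver set apart from the other 3, with a gap to the nearest larger than Dixon's 95% critical share of the range. By chance about 1 in 20 sets would. For Ghr probe A_51_P499854, which carries the accession of the full receptor, wild-type liver 3 read 5.76 while the other wild-type livers read 5.40 to 5.42. For Egfr probe A_55_P1956863, wild-type liver 1 read 3.03 while the other wild-type livers read 2.60 to 2.62. The second Ghr probe did not set wild-type liver 3 apart, with 6.02 beside 5.93 in wild-type liver 1.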

How the results depend on the processing

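None of the 23 probes and none of the 89 list genes passed an adjusted p of 0.05 in any of the 22 settings tried. Over these settings 493 differences of the 23 probes were recomputed, 453 kept their direction, 40 changed sign (23 of them with a liver left out), and the smallest adjusted p among them was 0.75. Filters, the variance model, slide and replicate blocks and testing brightest probes only cannot move a difference. Directions kept in those settings were fixed in advance. All Igf1 probes but A_55_P2031636, Igfbp3, Igfals, both Ghr probes, Socs2 A_55_P1992834 and the 3 tested Lepr probes kept their direction in each setting. Of these, Igfals was at 0.00 within slide 2, which is no difference in either direction at this rounding.

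Scaling to the array median in place of the 75th percentile moved the median of all probes to 0.16, so values there read relative to that shift. The sign changed to 0.03 for both Igfbp2 probes, 0.15 for Igfbp4, 0.16 and 0.15 for Egfr A_55_P1956862 and A_55_P1956863, and 0.10, 0.09 and 0.15 for Insr A_52_P494514, A_55_P2172566 and A_55_P2173927. The last probe was also at 0.01 with normexp on the median signal, chosen after the data were seen since no mean signal is in the files used, and at 0.02 in the authors' table. Within slide 1, Igfbp4 was at 0.07, Socs2 A_51_P107362 at -0.03, and the Egfr probes A_52_P106259, A_55_P1956862 and A_55_P1956863 at 0.15, 0.49 and 0.32. Within slide 2, Insr A_52_P494514 was at 0.06 and A_55_P2173927 at 0.13. The cause was not tested.

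With a liver left out, the differences ran from -0.04 to 0.66 for Socs2 A_51_P107362, -0.05 to 0.56 for A_55_P1992838, -0.67 to 0.07 for Egfr A_52_P106259, -0.32 to 0.27 for A_55_P1956862 and -0.39 to 0.33 for A_55_P1956863. They ran from 0.06 to 0.27 for Igfbp3, 0.05 to 0.41 for Igfals, -0.05 to 0.06 for Igfbp4, -0.01 to 0.16 for Igf1 A_55_P2031636, and -0.13 to 0.02, -0.12 to 0.02 and -0.08 to 0.10 for Insr A_52_P494514, A_55_P2172566 and A_55_P2173927.

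Over all probes, 2 passed as reported. The count was 1 in the authors' table, 0 among probes well above background on all 8 arrays, 4 with a trended and robust variance, 0 within slide 1, 1 within slide 2 and 1 to 2 with a liver left out (1 without Rap1-deficient liver 2 or 4 or wild-type liver 2). Replicate numbers did not pair the livers: deviations of same-numbered livers correlated at 0.15, -0.09, 0.02 and 0.10, and 1 of 4 Rap1-deficient livers matched its own number best. With the replicate block 1 probe passed over all probes and none of the group.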

Other observations

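Single livers stood at the ends of genes that respond to growth hormone with a sex bias, a count made over both lists after the values were seen. Rap1-deficient liver 2, the highest for all Igf1 and Egfr probes, was the highest of the 8 livers for 8 of the 12 tested male-biased genes and the lowest for 10 of the 15 tested female-biased genes. It was the highest for 2 female-biased genes, Sult3a1 (4.79) and Prlr (4.58). Rap1-deficient liver 3, the lowest for all Egfr and tested Lepr probes, was the lowest for 4 male-biased and the highest for 4 female-biased genes. Outside these lists it was the lowest for 6 of 17 insulin signalling genes and 4 of 10 insulin and fasting targets. Wild-type liver 2 was the lowest for 4 male-biased and 2 female-biased genes. How often each liver was highest or lowest over all genes is not given here. Slco1a1, a male-biased anion transporter gene, read 3.18 in Rap1-deficient liver 2, -1.70 in Rap1-deficient liver 3 and -0.71 to 1.73 in the other 6 livers, and it differed between genotypes by -0.39 (SE 0.96, limma adjusted p = 0.962). Wild-type liver 3, the lowest for Socs2, was the lowest for 0 male-biased and 1 female-biased gene. Wild-type liver 1, high for Socs2, was the lowest for 2 male-biased and 0 female-biased genes. These genes share the arrays and no test was made.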
